A study of Mus musculus with 10 samples.

Results

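The genes described here are 37 genes of the ATF4 amino acid response, chosen by name and split by role into 12 regulators and stress effectors, 8 enzymes of amino acid and one-carbon synthesis, 6 amino acid transporters and 11 cytosolic tRNA synthetases. Each gene was read from its probe set with the highest mean signal over all arrays, among probe sets annotated to a single gene symbol. Of the 37 genes, 36 had such a probe set and all 36 reached the level required for testing. They stand among 18193 genes with a probe set, of which 12160 were tested. The RNA of Pycr1, an enzyme of proline synthesis, is not analysed here.

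The cells were mouse Lewis lung carcinoma (LLC) cells, a lung tumour line of the C57BL/6 strain, carrying either TDAG8 or the control vector as a stable insertion, called here TDAG8 cells and control cells. TDAG8 (gene symbol Gpr65) is a receptor on the cell surface that is switched on by protons and raises cyclic AMP. Cells of both lines were held for 12 h without serum in DMEM with bovine serum albumin at pH 7.4 and then put in the same medium at pH 6.4 or at pH 7.4 for 4 or 12 h. The groups used are therefore TDAG8 cells kept for 4 and 12 h at pH 6.4, kept for 4 and 12 h at pH 7.4 and before treatment, and control cells under the same 5 conditions. Each of the 10 Affymetrix arrays received an equal mixture of RNA from 4 cultures, with 1 array per line and condition. The labels give neither the promoter that drives TDAG8 nor the number of clones behind a line.

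ATF4 is a transcription factor that cells make when the translation factor eIF2 is phosphorylated, above all by the kinase GCN2 when amino acids run short and by PERK when the endoplasmic reticulum is stressed. Together with partners of the C/EBP family it binds C/EBP-ATF response elements and switches on amino acid transporters, enzymes that make serine, glycine, asparagine and proline, tRNA synthetases, and regulators that slow translation and growth through mTORC1. In tumour cells these genes are known for keeping amino acids and glutathione supplied.

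The response element has the core TGATGNAA, of which TGATGCAA is a stricter form contained in it. Both were searched on both strands of the RefSeq promoter windows (build GRCm38.p6, from 250 bases before to 50 bases after a gene's start), which were found for 32 of the 37 genes and not for Eif4ebp1, Lars1, Nars1, Slc7a5 and Wars1. The core was present in the windows of 11 genes, among them Chac1, Nupr1, Trib3, Asns, Pycr1, Slc7a11, Gars1, Iars1, Tars1 and Yars1, while 3.97% of all 32851 windows held it. The stricter form was in 8 of them, against 0.895% of all windows. Some genes had more than 1 window, 37 windows for the 32 genes, so counts of genes stand here beside shares of windows. These matches describe the letters of the windows and say nothing of binding. The sequences below are parts of the windows of the genes whose RNA differed between pH 6.4 and pH 7.4 and that held the core, followed by 4 of the genes that held it but did not pass the test. All run 5′ to 3′ on the gene's own strand, with the core or its reverse complement in capitals.
Chac1, 250 bases before the start, chr2:119350992-119351241, plus strand: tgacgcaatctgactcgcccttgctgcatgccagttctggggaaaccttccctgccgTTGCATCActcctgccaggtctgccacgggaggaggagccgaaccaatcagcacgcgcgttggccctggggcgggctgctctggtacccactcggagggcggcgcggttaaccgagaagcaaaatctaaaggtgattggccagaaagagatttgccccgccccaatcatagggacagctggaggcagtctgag
Slc7a11, 250 bases before the start, chr3:50443614-50443863, minus strand: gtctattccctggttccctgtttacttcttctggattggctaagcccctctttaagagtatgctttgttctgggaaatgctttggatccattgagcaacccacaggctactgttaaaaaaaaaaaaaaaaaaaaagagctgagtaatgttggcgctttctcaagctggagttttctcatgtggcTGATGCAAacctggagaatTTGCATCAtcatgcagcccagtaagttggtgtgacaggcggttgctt
Trib3, match within the first transcribed bases, chr2:152344028-152344057, minus strand: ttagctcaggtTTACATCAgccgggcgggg
Asns, match 23 bases before the start, chr6:7693214-7693243, minus strand: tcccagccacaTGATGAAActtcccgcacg
Nupr1, match 110 bases before the start, chr7:126625562-126625591, minus strand: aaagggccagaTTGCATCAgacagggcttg
Tars1, match 15 bases before the start, chr15:11399655-11399684, minus strand: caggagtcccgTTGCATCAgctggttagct
Gars1, match 30 bases before the start, chr6:55037960-55037989, plus strand: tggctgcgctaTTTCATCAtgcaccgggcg

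The Chac1 window holds 1 match, 193 bases before the start, and the Slc7a11 window holds 2, on opposite strands, at 47 and 66 bases before the start. Slc38a2 had the largest difference of all 36 genes between pH 6.4 and pH 7.4, and the 250 bases before its start hold no match to the core. Bases outside the windows were not searched, so a missing match does not show that a gene lacks the element. The bases of Slc38a2 are shown for comparison.
Slc38a2, 250 bases before the start, chr15:96699729-96699978, minus strand: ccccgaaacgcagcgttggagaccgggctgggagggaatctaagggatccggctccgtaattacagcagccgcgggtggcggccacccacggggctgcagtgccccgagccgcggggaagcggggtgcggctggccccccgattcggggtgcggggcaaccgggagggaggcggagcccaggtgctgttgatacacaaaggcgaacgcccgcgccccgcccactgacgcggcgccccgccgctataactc

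The first question was how these genes differed between acidic and neutral medium. At pH 6.4 the RNA of 8 of the 36 genes fell and that of 1 rose, relative to pH 7.4. The genes that fell were the transcription factor Atf4 itself, its partner Cebpg, the feedback regulators and stress effectors Trib3, Chac1, Sesn2 and Ddit4, and the transporters Slc38a2 and Slc6a9. None of the 7 measured synthesis enzymes and none of the 11 tRNA synthetases passed. The test was limma over 4 matched pairs of arrays (the 2 lines at 4 h and at 12 h), with Benjamini-Hochberg adjustment over all 12160 genes and a threshold of 0.05. In that comparison 10.2% of all tested genes passed, 5.65% lower and 4.51% higher. With arrays centred on the median instead of quantile normalised, 32.4% of the 928 passing genes were higher, against 44.4% of 1236, and 8 of the 36 genes passed, all lower. With no filter on low signal 0 of the 36 passed by limma, and with a pair left out 1 passed without the 4 h pair of control cells and 0 without any other. An unadjusted p under 0.05 was reached by 15 of the 36 genes, against 32% of all tested genes.

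The differences of the 36 genes had a median of -0.31 on the log2 scale, against -0.0031 for all tested genes, and 32 of the 36 were negative, against 6124 of 12160. Without the TDAG8 12 h pair the median of the 36 genes was -0.17, and with arrays centred on the median it was -0.19. The 12 regulators had a median of -1.05, with 6 lower, and the 6 transporters a median of -0.79, with 2 lower and 1 higher. The synthesis enzymes had a median of -0.25 and the tRNA synthetases of -0.14. For 12 genes all 4 arrays at pH 6.4 lay below all 4 at pH 7.4, and for 1 gene all lay above, where 12.4% and 12.6% of all tested genes did so. In bulk RNA, fewer cells expressing a gene and less of its RNA per cell cannot be told apart.

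**Figure D1:**
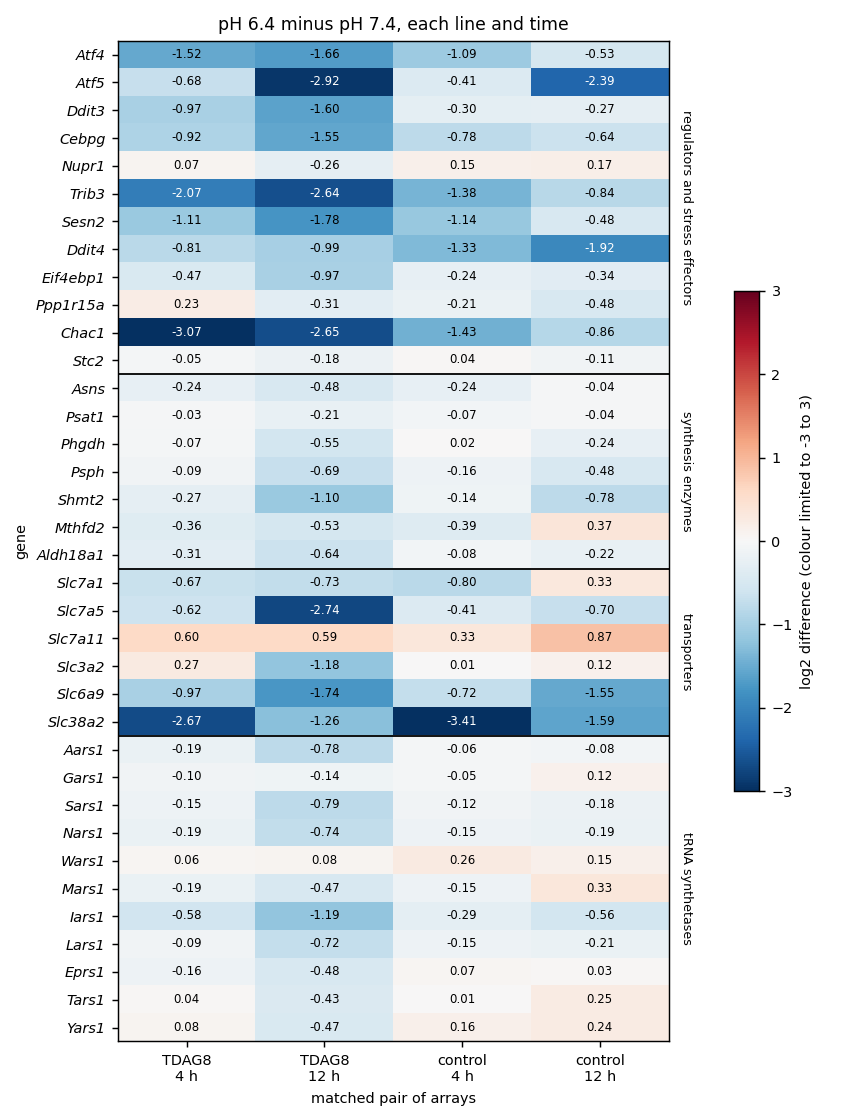
Log2 difference of pH 6.4 minus pH 7.4 for each of the 36 genes (rows, grouped by role) in each matched pair of arrays (columns, TDAG8 cells and then control cells at 4 h and 12 h), with blue for lower and red for higher at pH 6.4. Regulators and transporters held the darkest blue cells, down to -3.41 for Slc38a2 in control cells at 4 h, and the column of TDAG8 cells at 12 h is the one with the most genes past -1 (13 of 36, where 7.89% of all tested genes were).

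Among the regulators, Atf4 had a deposited linear signal of 1315 at 4 h and 968 at 12 h in TDAG8 cells and of 1729 and 2470.7 in control cells at pH 6.4. At pH 7.4 its signal was 3321 and 2990.5 in TDAG8 cells and 3203 and 3396 in control cells, and before treatment 2748 and 3396. All 4 acid arrays thus lay below all the others, and the control cells at 12 h came nearest to those. The difference was -1.20 (SE 0.21, adjusted p = 0.0321 by limma), lower in 4 of 4 pairs. A second probe set of Atf4 gave -1.52, and another with a mean signal of 2.14 gave 0.59, so that averaging the probe sets left -0.71 with an adjusted p of 0.0525 by limma.

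Cebpg, a dimer partner of ATF4, had 163 and 119 in TDAG8 cells and 187 and 228 in control cells at pH 6.4 (4 h and then 12 h, as in all signals below). At pH 7.4 it had 331 and 350 in TDAG8 cells and 347 and 351 in control cells. The pH groups did not overlap, and the array of TDAG8 cells at 12 h was lowest. The difference was -0.97 (SE 0.18, adjusted p = 0.0359 by limma, lower in 4 of 4 pairs), and -0.58 when its 3 probe sets are averaged.

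Trib3, a pseudokinase that binds ATF4 and limits its activity, had 105 and 62.4 in TDAG8 cells and 188 and 299 in control cells at pH 6.4. At pH 7.4 it had 483 and 407 in TDAG8 cells and 531 and 523.5 in control cells, above every acid array. The difference was -1.73 (SE 0.31, adjusted p = 0.0318 by limma, lower in 4 of 4 pairs).

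Chac1, an enzyme that breaks down glutathione and is a well-known target of ATF4, had a lower signal in TDAG8 cells than in control cells at pH 6.4. At each time this is 1 array against 1 array, and Chac1 did not pass between the lines. Its signal there was 30.9 and 26.2 in TDAG8 cells and 88.7 and 111 in control cells. At pH 7.4 it was 286 and 190 in TDAG8 cells and 267 and 210 in control cells. The difference was -2.00 (SE 0.39, adjusted p = 0.0393 by limma), with the pairs between -3.07 and -2.65 in TDAG8 cells and between -1.43 and -0.86 in control cells.

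Sesn2 and Ddit4 both restrain mTORC1, Sesn2 as a leucine sensor and Ddit4 through the TSC complex. Sesn2 had 96.1 and 68 in TDAG8 cells and 94.7 and 155 in control cells at pH 6.4, against 229 and 241 in TDAG8 cells and 235 and 219 in control cells at pH 7.4. Its difference was -1.13 (SE 0.22, adjusted p = 0.0393 by limma, lower in 4 of 4 pairs). Ddit4 had 750 and 696 in TDAG8 cells and 521 and 406 in control cells at pH 6.4, against 1221 and 1335 in TDAG8 cells and 1323 and 1495 in control cells at pH 7.4. Ddit4 was thus lower in acid in both lines, and its lowest array was that of control cells at 12 h. The Ddit4 difference was -1.26 (SE 0.21, adjusted p = 0.0268 by limma, lower in 4 of 4 pairs).

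The other 6 regulators did not pass. Atf5, a related transcription factor, had 142 and 55.8 in TDAG8 cells and 206 and 75 in control cells at pH 6.4, against 246 and 443 in TDAG8 cells and 297 and 418 in control cells at pH 7.4. Its difference of -1.60 (SE 0.47, adjusted p = 0.0834 by limma) came mainly from the 12 h pairs, at -2.92 and -2.39, against -0.68 and -0.41 at 4 h. Ddit3, which encodes the stress factor CHOP, had -0.78 (SE 0.25, adjusted p = 0.104 by limma), and Eif4ebp1, an inhibitor of cap-dependent translation, had -0.51 (SE 0.16, adjusted p = 0.0960 by limma). Ppp1r15a, the eIF2 phosphatase subunit, Nupr1, a stress-induced chromatin protein, and the glycoprotein hormone Stc2 lay between -0.19 and 0.03, and the Stc2 probe set was dim, at 4.7 to 14.2.

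Among the transporters, Slc38a2, the sodium-coupled carrier of neutral amino acids known as SNAT2, had 385 at 4 h and 1033 at 12 h in TDAG8 cells and 231 and 937 in control cells at pH 6.4. At pH 7.4 it had 2421 at both times in TDAG8 cells and 2579 and 2731 in control cells, and before treatment 2148 and 2381. The difference was -2.23 (SE 0.38, adjusted p = 0.0286 by limma), which is -1.003 when its 3 probe sets are averaged. By the probe set used, in both lines the acid array at 4 h was lower than the acid array at 12 h, and both lay below every array at pH 7.4.

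Slc6a9, the glycine transporter GlyT1, had 340 and 184 in TDAG8 cells and 338 and 213 in control cells at pH 6.4. At pH 7.4 it had 676 and 597 in TDAG8 cells and 582 and 605 in control cells. The 2 lines differed by between -0.25 and 0.24 in these 4 conditions, TDAG8 minus control, and the pH difference was -1.24 (SE 0.20, adjusted p = 0.0268 by limma, lower in 4 of 4 pairs).

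Slc7a11, the cystine and glutamate exchanger xCT, was the only gene of the 36 that rose. Its signal was low, with 30.2 and 21.5 in TDAG8 cells and 22.9 and 24.5 in control cells at pH 6.4, against 21 and 15 in TDAG8 cells and 16.6 and 14.6 in control cells at pH 7.4. It was 9.1 and 11.2 before treatment. The difference was 0.60 (SE 0.13, adjusted p = 0.0478 by limma, higher in 4 of 4 pairs). A second, also dim probe set gave -1.39, and the mean of the probe sets gave -0.40, so the direction for Slc7a11 depends on the probe set. The call was also lost, by limma, with arrays centred on the median (adjusted p = 0.0861), without the filter on low signals (0.117), with the lower pseudocount (0.0517), with trended and robust eBayes (0.0800), without normalisation of the deposited signals (0.0552) and without any 1 of the 4 pairs (0.0843 to 0.143).

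Slc7a5, which with the heavy chain Slc3a2 forms the large neutral amino acid exchanger LAT1, had 1175 and 273 in TDAG8 cells and 1266 and 997 in control cells at pH 6.4, against 1633 and 1683 in TDAG8 cells and 1519 and 1567 in control cells at pH 7.4. The groups did not overlap, but the array of TDAG8 cells at 12 h stood far below the other acid arrays. The difference of -1.12 (SE 0.41, adjusted p = 0.133 by limma) did not pass. Slc3a2 had -0.19 (SE 0.26, adjusted p = 0.658 by limma) and Slc7a1, the carrier of arginine and lysine, -0.47 (SE 0.22, adjusted p = 0.205 by limma).

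The synthesis enzymes lay between -0.57 and -0.09. They were Phgdh, Psat1 and Psph of serine synthesis, Shmt2 and Mthfd2 of mitochondrial one-carbon metabolism, Asns, which makes asparagine, and Aldh18a1 of proline synthesis. Asns, whose window holds the core, had 2054 and 1337 in TDAG8 cells and 2183 and 2226 in control cells at pH 6.4, against 2139 and 1896 in TDAG8 cells and 2243 and 2152 in control cells at pH 7.4. The groups overlapped, and Asns differed by -0.25 (SE 0.12, adjusted p = 0.226 by limma). The tRNA synthetases, which charge tRNAs with their amino acids, lay between -0.65 for Iars1 and 0.14 for Wars1. Iars1 (isoleucine) was the only synthetase whose pH groups did not overlap, and it did not pass (SE 0.17, adjusted p = 0.0699 by limma).

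**Figure D2:**
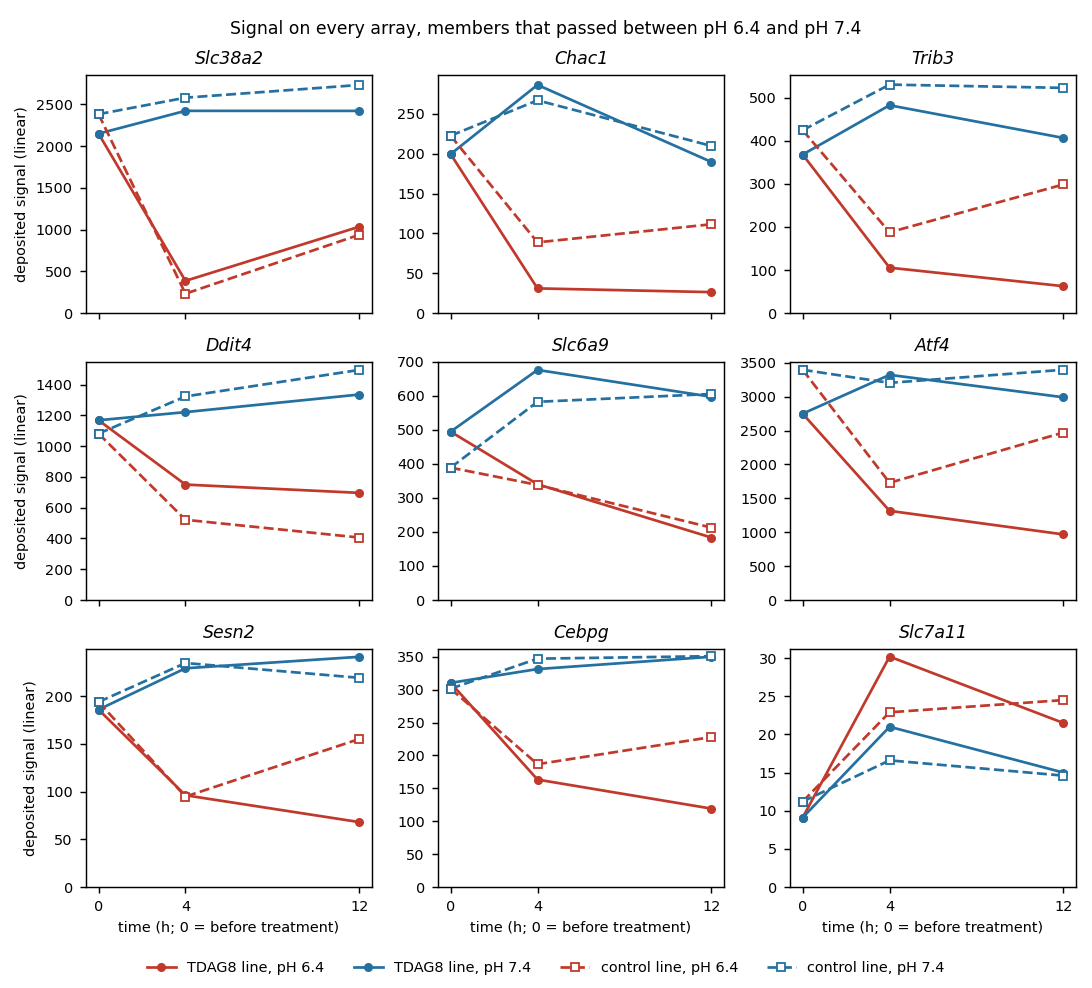
Deposited linear signal (vertical axes, from 0) against time in h (0 is before treatment) for the 9 genes that passed between pH 6.4 and pH 7.4, with 1 array per point, filled circles for TDAG8 cells, open squares for control cells, red for pH 6.4 and blue for pH 7.4. In the first 8 panels every red point at 4 and 12 h lies below the blue points, and for Atf4, Trib3, Sesn2 and Cebpg the red curves of TDAG8 cells and control cells part between 4 and 12 h. The pH 6.4 and pH 7.4 curves of a cell line start from the same array.

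These calls rest on all 4 pairs. With any 1 pair left out, between 0 and 289 of all tested genes passed. The 1 gene of the 36 left was Slc6a9 without the 4 h pair of control cells (adjusted p = 0.0454 by limma), and its range over the omitted pairs reached 0.108. The sign of all 9 genes was the same in each of the 4 pairs. With no filter, 255 of 18193 genes passed.

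Markers of other cell types were measured on the same arrays. The 6 fibroblast markers, of which 4 reached the level for testing, summed to between 1028 and 1309 at pH 6.4 and between 2098 and 3565 at pH 7.4, and their part in the result was not tested. Pdgfra, Pdgfrb and Dcn carried nearly all of this sum, and each was lower at pH 6.4 in every pair. Pdgfra, a growth factor receptor, fell by 1.70 on the log2 scale (SE 0.14, adjusted p = 0.0140 by limma). The other fibroblast markers were dim. Thy1, at 1 to 10, was higher at pH 6.4 in every pair, Col1a2, at 6.7 to 20, went both ways, and Col1a1 stayed between 1.1 and 8.1. Leukocyte markers summed to at most 43.6 and endothelial markers to at most 33, with Ptprc at most 6.3 and Pecam1 at most 6.6. The epithelial keratin Krt8 lay between 1242 and 2648, whereas the epithelial cadherin Cdh1 was at most 5.3. The Gpr65 probe set read between 0.3 and 5.3 on all arrays of both lines, and so gave no check of the receptor's expression.

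Genes around the response were set beside these results, and of all tested genes 5.65% were lower and 4.51% higher. Of 14 measured genes of the eIF2 kinases and the eIF2 machinery, 3 fell and none rose. They were Impact, an inhibitor of GCN2 activation (-0.79, SE 0.11, adjusted p = 0.0204 by limma), the RNA-activated kinase Eif2ak2, known as PKR (-0.76, SE 0.15, adjusted p = 0.0399 by limma), and Eif2ak4, which is GCN2 (-0.66, SE 0.14, adjusted p = 0.0433 by limma). None of these passed as the mean of its probe sets, where Impact had -0.52, Eif2ak2 -0.48 and Eif2ak4 -0.15 (adjusted p = 0.110, 0.0692 and 0.564 by limma), and the second probe set of Eif2ak4, with a mean signal of 15.6, gave 0.35. Of 19 tested further targets and partners of ATF4, 5 fell and none rose, with a median of -0.55. The largest differences among those that passed were those of the amino acid transporter Slc38a1 (-1.33, SE 0.20, adjusted p = 0.0229 by limma), the hormone Fgf21 (-1.23, SE 0.16, adjusted p = 0.0172 by limma, at a signal of only 3.5 to 23.2), the transcription factor Jdp2 (-1.06, SE 0.22, adjusted p = 0.0430 by limma) and the transporter Slc38a7 (-0.76, SE 0.13, adjusted p = 0.0292 by limma). The other probe set of Slc38a1, with a mean signal of 355 against 496 for the one used, gave 0.38, so the direction for Slc38a1 depends on the probe set. With probe sets averaged Slc38a1 had -0.48 and Jdp2 -0.53 (adjusted p = 0.0913 and 0.150 by limma). Of the 5, Fgf21 and Slc38a7, with 1 probe set each, were the ones that passed there.

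Of 17 genes of amino acid sensing by mTORC1, 2 fell and 1 rose, a count near the shares of all tested genes. Flcn, folliculin, which controls the Rag GTPases, fell (-1.77, SE 0.17, adjusted p = 0.0140 by limma), as did the sestrin Sesn3 (-0.89, SE 0.17, adjusted p = 0.0369 by limma). Castor1, an arginine sensor, rose (1.08, SE 0.17, adjusted p = 0.0232 by limma). Of 16 mitochondrial tRNA synthetases, 3 rose and none fell, namely Vars2 (0.68, adjusted p = 0.0299), Yars2 (0.57, adjusted p = 0.0374) and Tars2 (0.56, adjusted p = 0.0397), all by limma. With probe sets averaged Flcn had -1.03 (adjusted p = 0.0144 by limma), and of the mitochondrial synthetases Tars2 alone of these 3 passed. With arrays centred on the median 0 of the 3 passed by limma (adjusted p = 0.0766 to 0.0950). Of all the genes called in these 4 lists, Flcn and Fgf21 passed with no filter (adjusted p = 0.0450 and 0.0492 by limma). With a pair left out Flcn alone passed, without the 4 h pair of TDAG8 cells (adjusted p = 0.0498 by limma) and without that of control cells (adjusted p = 0.0414 by limma). None of 8 other cytosolic tRNA synthetases and none of 5 other folate and one-carbon genes passed, with medians of 0.08 and 0.07.

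The second question was how TDAG8 cells differed from control cells. Most of the 36 genes had lower values in TDAG8 cells, and the gap was widest after 12 h at pH 6.4, but none passed the test over the 5 matched conditions. Of all tested genes 1.23% passed in that comparison, and an unadjusted p under 0.05 was reached by 11 of the 36 genes, against 20.8% of all. On the values as deposited 68.2% of the 110 passing genes were higher, against 56.4% of 149. The differences were negative for 31 of the 36 genes, with a median of -0.23, against -0.0025 for all genes. All 11 tRNA synthetases and all 7 synthesis enzymes were on the negative side. When the pair at pH 6.4 and 12 h was left out, the median was -0.0927.

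The 4 genes with the largest differences of the same sign in all 5 pairs were Ddit3, Trib3, Ppp1r15a and Lars1. In TDAG8 cells Ddit3 had 156 and 99 at pH 6.4, 326 and 301.5 at pH 7.4 and 203 before treatment. In control cells it had 314 and 363 at pH 6.4, 403 and 436 at pH 7.4 and 272.5 before treatment. The lines overlapped, and the difference was -0.83 (SE 0.23, adjusted p = 0.135 by limma). The signals of Trib3 given above differed by -0.75 between the lines (SE 0.31, adjusted p = 0.242 by limma), with the pairs between -2.20 at pH 6.4 and 12 h and -0.13 at pH 7.4 and 4 h.

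Ppp1r15a, whose product GADD34 brings a phosphatase to eIF2, had 82.6 and 70.6 at pH 6.4, 79.1 and 90.8 at pH 7.4 and 79.8 before treatment in TDAG8 cells. In control cells it had 88.9 and 112 at pH 6.4, 113 and 162 at pH 7.4 and 90.1 before treatment. It differed by -0.49 (SE 0.12, adjusted p = 0.109 by limma). Lars1, the leucine tRNA synthetase, had 671 and 402 at pH 6.4, 688 and 643 at pH 7.4 and 636 before treatment in TDAG8 cells. In control cells it had 838 and 681 at pH 6.4, 889 and 760 at pH 7.4 and 863 before treatment. For both genes the ranges of the lines overlapped by a little, and Lars1 differed by -0.42 (SE 0.09, adjusted p = 0.0865 by limma). Atf4 differed by -0.33 (SE 0.20, adjusted p = 0.409 by limma).

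After 12 h at pH 6.4 the single pair of arrays differed more broadly. Here 33 of the 36 genes were lower in TDAG8 cells, with a median of -0.62, against 0.0068 for all genes. Past -1 were 9 genes, where 2.02% of all tested genes were, and with 1 array each there is no test. They were Trib3 (-2.20), Chac1 (-1.94), Slc7a5 (-1.89), Ddit3 (-1.87), Atf4 (-1.26), Sesn2 (-1.17), Slc3a2 (-1.13), the mitochondrial folate enzyme Mthfd2 (-1.11) and Slc7a1 (-1.09). The medians of the other 4 pairs were -0.14 at pH 6.4 and 4 h, -0.05 at pH 7.4 and 4 h, -0.11 at pH 7.4 and 12 h and -0.17 before treatment.

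**Figure D3:**
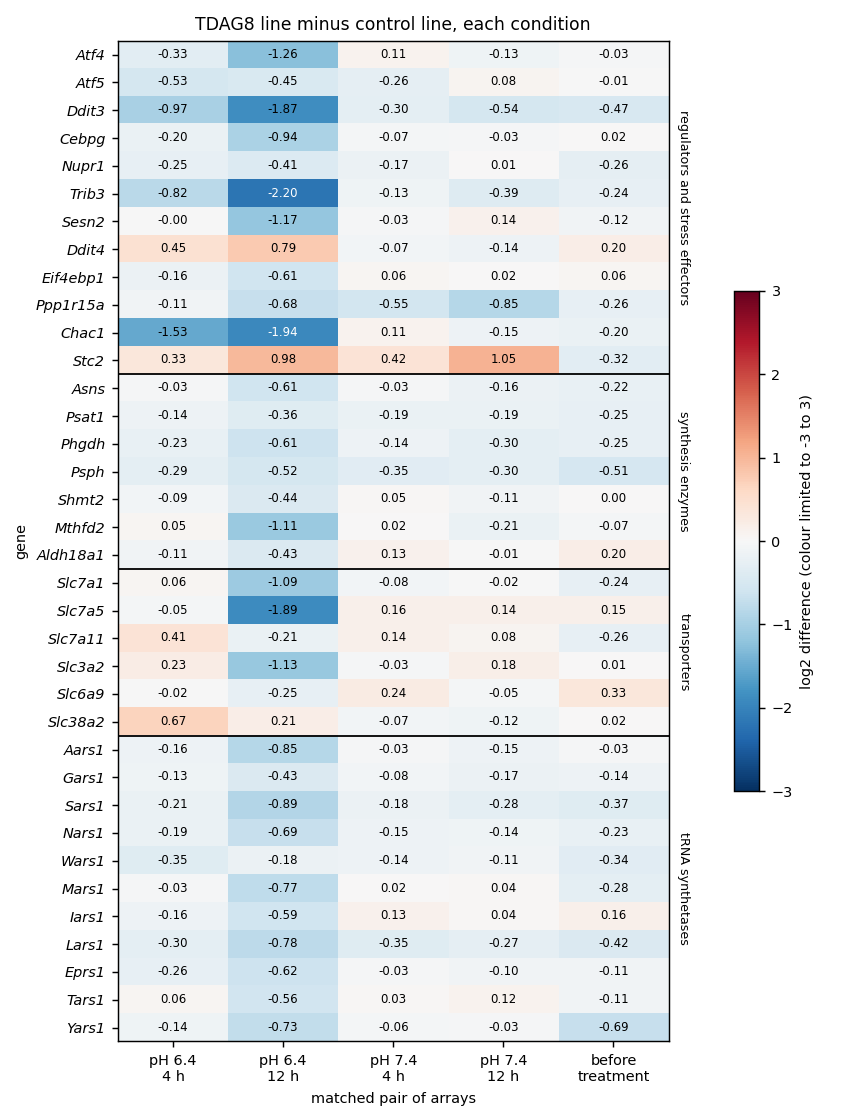
Log2 difference of TDAG8 cells minus control cells for each of the 36 genes (rows, grouped by role) in each of the 5 conditions (columns), with blue for lower and red for higher in TDAG8 cells. The column for pH 6.4 at 12 h is blue in 33 of 36 rows, and Ddit4, Stc2 and Slc38a2 are its 3 positive rows.

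The array of TDAG8 cells at pH 6.4 and 12 h held the lowest deposited signal of all 10 arrays for 30 of the 36 genes, where it did so for 12.9% of all tested genes. These were all 7 synthesis enzymes, 10 of the 11 tRNA synthetases, 9 of the 12 regulators and 4 of the 6 transporters. Phgdh, the first enzyme of serine synthesis, had 1283 on this array, against 2143 in control cells, and Mthfd2 had 649, against 1404. Slc3a2 had 678, against 1520. On the same array the median signal over all probe sets was 12.2, within the range of 11.7 to 13.8 over the arrays. The ratio of 3′ to 5′ signal was 1.27 for beta-actin and 0.770 for Gapdh, within the ranges of 1.26 to 1.35 and of 0.756 to 0.841.

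Epithelial markers summed to between 2100 and 2878 in TDAG8 cells and between 1293 and 2094 in control cells, and their part in these differences was not tested. Krt8 made up nearly all of this sum. Krt18 had 62.3 to 194.4 in TDAG8 cells and 21.6 to 42.1 in control cells, whereas the ranges of Epcam, Ocln and Cdh1 overlapped between the lines. None of the genes in the other lists passed between the lines. The 8 other cytosolic tRNA synthetases had a median of -0.26 and the 16 mitochondrial ones of 0.16 in the pair at pH 6.4 and 12 h.

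The third question was whether the response to pH differed between the lines. No gene of the array passed this test (limma), which had 2 residual degrees of freedom. On simulated data this fit recovered no changed gene, so it cannot tell equal responses from different ones. Unadjusted p-values under 0.05 were found for 3 of the 36 genes, against 2.75% of all tested genes. The response of TDAG8 cells minus that of control cells was negative for 33 of the 36 genes, with a median of -0.33, against -0.0020 for all genes. Without the TDAG8 12 h pair the median was -0.11.

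The genes with the largest such differences were Chac1 (-1.72, SE 0.35), Trib3 (-1.25, SE 0.36), Slc7a5 (-1.12, SE 0.73) and Ddit3 (-0.9998, SE 0.33), each with an adjusted p of 0.9999 by limma. Atf4 had -0.78 (SE 0.32, adjusted p = 0.9999 by limma). For Chac1 the difference was alike at both times, at -1.64 after 4 h and -1.79 after 12 h. For Atf4 it was -0.43 after 4 h and -1.13 after 12 h, and for Slc7a5 -0.21 and -2.04.

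Taken by time, 24 of the 36 genes had the lower response in TDAG8 cells after 4 h, with a median of -0.07, and 1 was past -1, where 3.56% of all tested genes were. After 12 h these were 33 genes, with a median of -0.54, and 8 were past -1, where 3.75% of all tested genes were. At 12 h all 7 synthesis enzymes (median -0.32) and all 11 tRNA synthetases (median -0.61) lay on the negative side. Ddit4 lay on the positive side at both times, at 0.52 and 0.93. Each time point rests on 1 array per group, and the shares of all tested genes by sign are not given beside these counts.

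The last question was how the genes moved over time. Between 12 h and 4 h, over the 4 pairs of line and pH, no gene of the array passed (limma), and 4 of the 36 genes had an unadjusted p under 0.05, against 11.7% of all. These were Psph, Iars1, Psat1 and Aldh18a1. The differences were negative for 32 of the 36 genes, with a median of -0.20, against 0.018 for all tested genes. Without the TDAG8 pair at pH 6.4 the median of the 36 genes was -0.06. Among genes whose sign was shared by all 4 pairs the largest differences were those of Slc38a2, at 0.84 (SE 0.36, adjusted p = 0.423 by limma), Shmt2 -0.48 (SE 0.19), Psph -0.48 (SE 0.14) and Iars1 -0.47 (SE 0.15), the last 3 also at an adjusted p of 0.423 by limma. The other probe sets of Slc38a2, with mean signals of 361 and 19.8, gave -0.06 and -0.28, so its direction over time depends on the probe set. By the probe set used, its log2 values at pH 7.4 were 11.30 at 4 h and 11.31 at 12 h in TDAG8 cells. In control cells they were 11.38 and 11.44. At pH 6.4 they were 8.63 and 10.055 in TDAG8 cells and 7.96 and 9.85 in control cells, so nearly all of the rise lay in acid. Atf4 had 0.05 (SE 0.18, adjusted p = 0.906 by limma), made of -0.31 in TDAG8 cells and 0.62 in control cells at pH 6.4, and of -0.17 and 0.06 at pH 7.4.

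Whether the pH response differed between 12 h and 4 h was tested in a fit with 2 residual degrees of freedom, in which no gene passed (limma). On simulated data this fit recovered no small change and missed many large ones, so this outcome does not show equal responses. Unadjusted p-values under 0.05 were found for 4 of the 36 genes, against 25.8% of all tested genes, namely Atf5, Slc38a2, Slc6a9 and Shmt2 (-0.74, SE 0.19, adjusted p = 0.126 by limma). The 4 largest differences of the same sign in both lines were -2.11 for Atf5 (SE 0.25, adjusted p = 0.0995), 1.62 for Slc38a2 (SE 0.32, adjusted p = 0.101), -1.20 for Slc7a5 (SE 0.73, adjusted p = 0.369) and -0.80 for Slc6a9 (SE 0.18, adjusted p = 0.115), all by limma. Atf5 thus had the lower response at 12 h in both lines, with differences of -2.24 in TDAG8 cells and -1.98 in control cells, and Slc38a2 the higher one, with differences of 1.42 and 1.83. For Slc38a2 these values come from the 1 probe set used, whose difference over time the other probe sets did not share. Atf4 had 0.21 (SE 0.45, adjusted p = 0.801 by limma). TDAG8 cells had lower responses at 12 h than at 4 h for 33 of the 36 genes (median -0.49) and control cells for 18 (median 0.0017). The shares of all tested genes by sign in each line are not given here, so these counts do not show a shift particular to these genes. In the fit over both lines the median of the 36 genes was -0.23, against 0.0386 for all tested genes. Without the TDAG8 12 h pair the median of the 36 genes was 0.0305.

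Against the arrays before treatment, the fresh medium at pH 7.4 alone came with small differences in these genes. Each of these differences is 1 array against 1 array, without a test. After 4 h at pH 7.4, 35 of the 36 genes had a positive difference in TDAG8 cells (median 0.15) and 29 in control cells (median 0.11). The values lay between -0.0004 and 0.93 in TDAG8 cells and between -0.66 and 0.57 in control cells. Of all tested genes 0.921% were past 1 and 1.29% past -1 in TDAG8 cells, and 1.59% and 1.61% in control cells. The shares of all genes by sign are not given here, so the counts by sign do not show a shift particular to these genes. At pH 6.4 after 12 h the median was -0.73 in TDAG8 cells and -0.26 in control cells. The regulators and the transporters had medians of -1.19 and -1.08 in TDAG8 cells and of -0.42 and -0.23 in control cells. The tRNA synthetases had medians of -0.54 in TDAG8 cells and -0.09 in control cells at that time, whereas at 4 h both were close to 0, at 0.02 and -0.04. Medians of all tested genes are not given beside these.

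**Figure D4:**
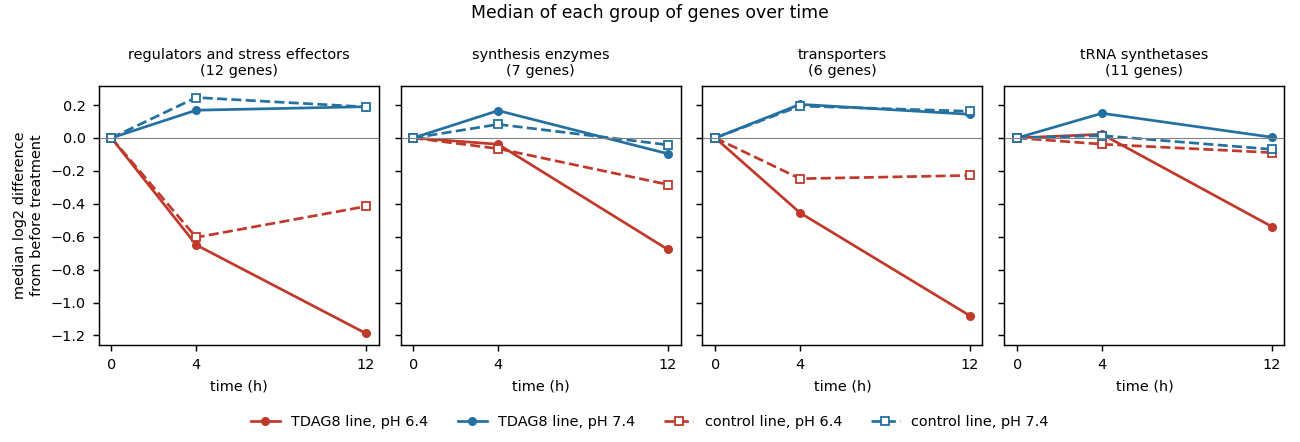
Median log2 difference from the array before treatment of the same line (vertical axis) against time in h, with 1 panel per group of genes, filled circles for TDAG8 cells, open squares for control cells, red for pH 6.4 and blue for pH 7.4. The red curve of TDAG8 cells goes on down to 12 h in all 4 panels, to -1.19 for regulators, -0.68 for enzymes, -1.08 for transporters and -0.54 for tRNA synthetases, while that of control cells ends between -0.42 and -0.09. Each line's curves share the array before treatment.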

How the data were processed

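RNA of 10 samples was read on Affymetrix mouse arrays from 2 µg per array, per the labels' protocols. The deposited values are linear signal intensities per probe set, scaled by the authors to a common target, since the 2% trimmed mean of every array was 100. The authors' software is not given in the sources used here. Groups came from the sample titles, and the signal of each probe set was used as deposited.

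Arrays were quantile normalised, and values were taken as log2(signal + 2.4), 2.4 being the 20th percentile. Of 45101 probe sets, 34945 had 1 gene symbol, 932 several and 9160 none, and 64 were controls. Genes whose mean reached log2 3.17, the 40th percentile over all probe sets, were tested with limma 3.58.1 in R 4.3.3 (lmFit, eBayes, Benjamini-Hochberg adjustment, threshold 0.05). All differences are on this log2 scale, which understates those of dim genes. Matched arrays were blocks, and with 1 array per condition the pairs stood in for replicates. The p-values thus measure only the spread between these arrays, and their number limits the precision. In the pH fit this spread is how far the pH difference varied over the lines and times. A gene whose response changed with line or time therefore passed less readily. The interaction fits had 2 residual degrees of freedom. The fits were tested on simulated data. There the fit of the pH response between the lines recovered no changed gene, and the pH fit missed many small changes. The fit of the pH response between the times recovered no small change and missed many large ones. A gene that did not pass is thus not shown to be unchanged.

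The genes and lists were chosen with earlier results of these data known. Described one by one were the genes that passed, the 4 genes with the largest difference of the same sign in every pair where fewer than 4 passed, and Atf4. Alternatives were median centring, no filter, the mean of probe sets, other pseudocounts, eBayes with trend and robust, no block, added model terms, the treated arrays alone and each pair left out. The values as deposited, without further normalisation, were an alternative chosen after seeing the data.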

Additional observations from a re-analysis of the deposited data

Results flagged for a closer look

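Eprs1, the synthetase that charges tRNAs with glutamate and proline, was singled out because its 2 acid differences in TDAG8 cells, -0.16 at 4 h and -0.48 at 12 h, were both negative, whereas those in control cells, 0.07 and 0.03, were both positive. The response of TDAG8 cells minus that of control cells was -0.37 (SE 0.28, adjusted p = 0.9999 by limma), and the difference did not pass. The fit behind it recovered no changed gene on simulated data, so it cannot decide whether the lines differed.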

How the results depend on the processing

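The number of genes passing between pH 6.4 and pH 7.4, 9 of 36, was 0 with no filter and between 0 and 1 with a pair left out. Median centring, the lower pseudocount and the values as deposited each gave 8, the mean of probe sets 7, the higher pseudocount 9, the fit without a block 10, trend and robust eBayes 12, and an added pH by time term 13. Over all genes the count was 1236, against 105 without the TDAG8 4 h pair, 289 without the control 4 h pair, 0 without either 12 h pair, 255 with no filter, 2091 under trend and robust eBayes, 1885 without a block and 3412 under an added pH by time term. Median centring moved the share of higher calls to 32.4% of 928, and the values as deposited to 33.2% of 1124, where it was 44.4% of 1236 as reported.

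Between the lines 0 genes passed, against 1 with the pseudocount at the 40th percentile and 7 with trend and robust, all lower, and over all genes the count of 149 ranged from 4 to 883. For the pH response at 12 h minus 4 h, 0 passed, against 4 with trend and robust and 1 with additive line and time, and over all genes 1846 and 716 did. Median centring moved the median of all genes there to 0.20 and that of the 36 genes to -0.06.

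The sign turned for Slc7a11 with the mean of probe sets (-0.40) and for Atf4 at 12 h over 4 h without the control pair at pH 6.4 (-0.14, up to 0.17 without the TDAG8 pair at pH 6.4). It also turned for the pH response of Atf4 at 12 h minus 4 h without the TDAG8 4 h pair (-0.0084) and without the control 12 h pair (-0.36), and was up to 0.77 without the TDAG8 12 h pair. The cause was not tested. The labels carry no replicate numbers, and the matched conditions were the pairs in the fits. The signals of Slc7a11 and Stc2 were dim.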
